A study of Mus musculus with 6 samples.

Results

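Iron handling was examined in mouse peritoneal macrophages through 10 genes, taken from a table of 54532 genes by symbol: the ferritin chains Fth1 and Ftl1, the haem oxygenase Hmox1, the metal transporters Slc11a1 and Slc11a2, the iron exporter Slc40a1, the transferrin receptor Tfrc, the siderophore-binding lipocalin Lcn2 and the iron regulatory proteins Ireb2 and Aco1. All 10 symbols were found once, and 9 of them had a mean level of at least 1 FPKM and entered the tests. Slc40a1 did not. The cells came from wild-type male C57BL/6J mice aged 6 to 8 weeks that had received 3% thioglycolate, with peritoneal lavage on day 5, so they were elicited rather than resident macrophages. Control cells were left untreated. Model cells received lipopolysaccharide (LPS, a bacterial outer membrane component) at 500 ng/mL for 5.5 h and then ATP at 2 mM for 0.5 h, which together activate the NLRP3 inflammasome. For MUS, muscone, the macrocyclic ketone of musk, was combined with this treatment at 50 µM 0.5 h before ATP. Each of the 3 groups had 2 libraries. The labels do not say whether these came from separate mice or cultures, so p-values measure only the spread between the libraries, which may be technical.

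Macrophages take in iron bound to transferrin through the transferrin receptor and, in the body, recover far more from the haem of old red cells. Iron that is not used is stored in ferritin or leaves the cell through ferroportin, the product of Slc40a1. The 2 iron regulatory proteins bind a hairpin, the iron-responsive element, in messenger RNAs of these genes when iron is scarce. Binding near the start of the message blocks translation, as in both ferritin chains and ferroportin, whereas binding beyond the coding sequence protects the transferrin receptor message from decay. Inflammation is known to move iron away from microbes, in part by iron retention in macrophages. The values given here are RNA levels, and neither proteins nor iron were measured in these libraries.

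The hairpin letters are shown first, because they divide the members that hold them by the end of the message at which the regulatory proteins bind. The search was for a C, 5 bases, the loop CAGTGN and 5 bases that can pair with the first 5, and it read the GENCODE M21 transcripts on GRCm38 in the sense direction. Of the 10 members, 4 held a match. Such letters stand in the 5′ UTR of 0.133% and in the 3′ UTR of 0.635% of 22527 protein-coding genes. The 27 bases around each loop are printed in transcript direction with the loop in capitals. The first 3 lie in 5′ UTRs, of Fth1 at chr19:9982733-9982759 on the plus strand, of Ftl1 at chr7:45459780-45459806 on the minus strand and of Slc40a1 at chr1:45925466-45925492 on the minus strand. The other 4 lie on the plus strand in the 3′ UTR of Tfrc, at chr16:32631220-32631246, chr16:32631599-32631625, chr16:32631664-32631690 and chr16:32631711-32631737.
Fth1: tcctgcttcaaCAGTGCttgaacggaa
Ftl1: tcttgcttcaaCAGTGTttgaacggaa
Slc40a1: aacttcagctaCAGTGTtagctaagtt
Tfrc, the first: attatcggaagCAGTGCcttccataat
Tfrc, the second: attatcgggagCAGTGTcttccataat
Tfrc, the third: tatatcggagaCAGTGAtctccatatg
Tfrc, the fourth: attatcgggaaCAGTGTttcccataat
The arms of the Fth1 and Ftl1 sites are nearly the same letters, and those of Slc40a1 and Tfrc differ from them. The other 6 members, among them Slc11a2, held no such letters in the transcripts searched, which says nothing more about them. The search asked for 5 unbroken pairs and would miss a hairpin of another shape.

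The libraries held between 15526321 and 17135442 fragments on genes, recovered from the deposited values, and between 17406 and 24906 genes with at least 1 fragment. The highest of these gene numbers was that of Model replicate 1, and the others did not exceed 19200. The deposited per-million scale was 1.45 and 1.34 times the fragment total in the 2 Control libraries and between 0.909 and 0.998 times in the other 4. Scaling all libraries to their fragment totals moved the median log2 fold change of all 9794 tested genes in Model vs. Control from 0.04 to −0.40, so differences from Control depend on this choice. All 10 macrophage markers passed the filter, with summed levels of 9781 to 14646 FPKM. In such bulk libraries fewer cells of a type and less RNA per cell cannot be told apart. Control replicate 2 stood apart from Control replicate 1 in 10 LPS response genes, with a sum of 549 against 56.4 FPKM, while the 4 stimulated libraries held 12764 to 20128 FPKM. Erythroid markers summed to at most 0.372 FPKM, and 4 of the 9 in the table were at 0 in every library. The B cell, T cell and mast cell lists summed to at most 1.87, 0.573 and 0.873 FPKM, eosinophil markers to between 1.63 and 4.19 FPKM, and mesothelial or fibroblast markers to between 10.7 and 21.01 FPKM.

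Levels spanned more than 5 orders of magnitude, on the FPKM scale, which is per kilobase and therefore allows genes to be compared. Fth1 had the highest level of all genes in every library, between 12415 and 20735 FPKM. It was followed by Ftl1 with 1017 to 3603 FPKM, then by Hmox1 with 135 to 298 FPKM and Slc11a1 with 81.5 to 216 FPKM, whose ranges overlapped. Slc11a2 ranged from 18.6 to 74.5 FPKM, Lcn2 from 0.333 to 44.0 FPKM and Tfrc from 10.5 to 33.1 FPKM. Aco1, with 8.64 to 17.6 FPKM, and Ireb2, with 7.21 to 13.4 FPKM, overlapped with each other. Slc40a1 was lowest, with at most 0.321 FPKM. The order below Slc11a1 was not fixed, because Lcn2 was the lowest of the tested members in Control and exceeded Tfrc in both other groups.

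**Figure D1:**
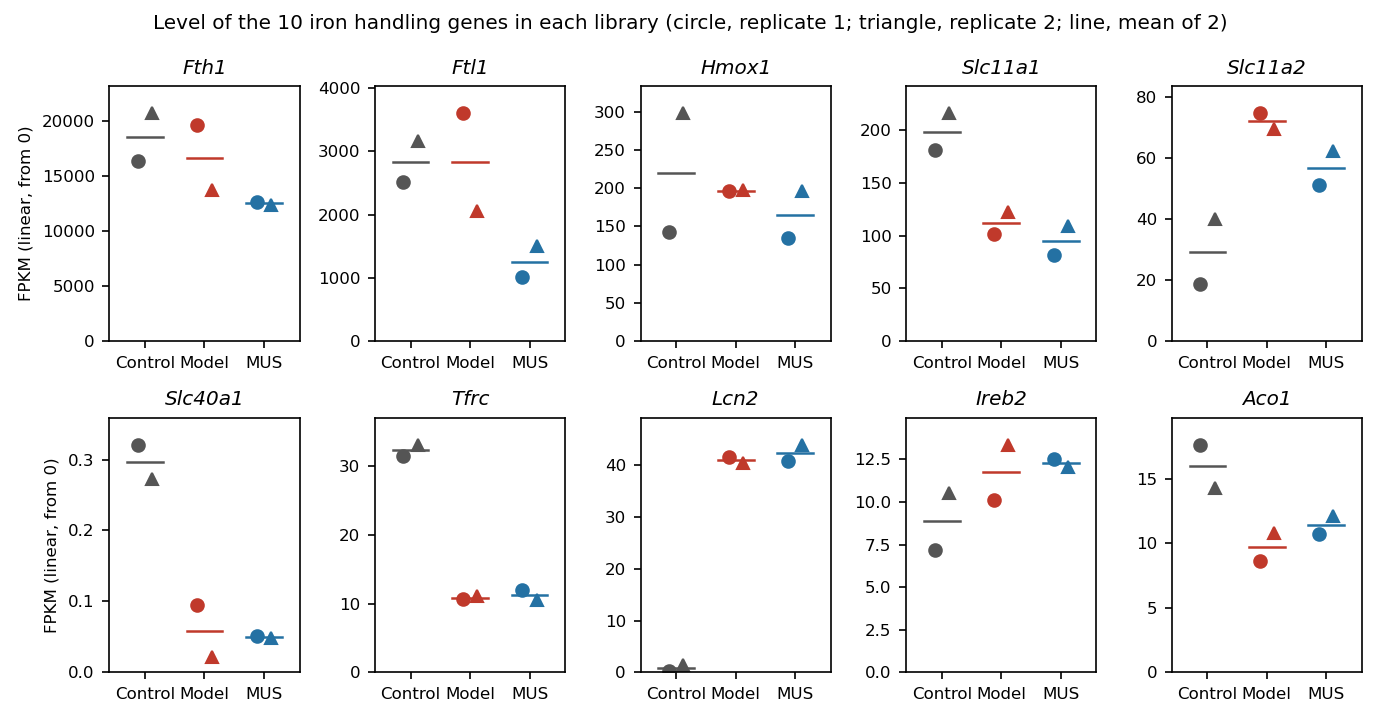
Deposited FPKM of the 10 iron handling genes, with 1 panel per gene, the 3 groups on the horizontal axis and a linear vertical axis from 0. Circles are replicate 1, triangles replicate 2 and lines the mean of 2. Lcn2 sits near 0 in Control and near 41 FPKM in Model, Tfrc near 32 FPKM in Control and near 11 FPKM elsewhere, and both Ftl1 values of MUS lie below the other 4.

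The comparison of Model with Control asks what stimulation with LPS and ATP did to these genes. Lcn2 rose 46.0-fold over the mean of Control, or 123-fold over Control replicate 1 and 28.3-fold over Control replicate 2 alone, and Tfrc fell to 0.337 times its Control level. No other member passed both thresholds, which ask for an adjusted p no higher than 0.05 together with a log2 fold change beyond 1 in either direction. Of the 9 tested members, 1 was thus called higher and 1 lower, each 11.1% of them, beside 9.5% and 5.56% of all 9794 tested genes. Lcn2 averaged 0.892 FPKM in Control, so it entered the tests through the groups where it was high, and the counts are description only. Counted by libraries that did not overlap, 2 members were higher (Lcn2 and Slc11a2) and 3 lower (Tfrc, Slc11a1 and Aco1), beside 32.6% and 28.5% of all tested genes. The share of members called higher was thus close to that of all genes, and neither count sets the members apart. The median log2 fold change was −0.07 over the 9 members and 0.04 over all tested genes.

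Lcn2 encodes lipocalin-2, which binds bacterial siderophores and so withholds iron from microbes. It is also a granule protein of neutrophils. Its level was 0.333 and 1.45 FPKM in Control, 41.6 and 40.5 FPKM in Model, and 40.8 and 44.0 FPKM in MUS. Both Control values were far below the other 4, which lay close together. The Control values rest on 20 and 87 fragments and the others on 1540 to 1873. Control replicate 2, the library with the higher sum of LPS response genes, also had more Lcn2 than Control replicate 1. Against Control, the log2 fold change of Lcn2 in Model was 4.54 ± 0.32 (SE, limma with Benjamini-Hochberg adjustment, adjusted p = 0.00107). Adding 0.1 instead of 1 to each FPKM value gave 5.65, so the size of the change depends on this setting. Within the batches of the labels, which carry the replicate number, the log2 fold change was 5.00 in batch 1 and 4.08 in batch 2. Without Control replicate 2 it was 4.98.

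Neutrophil markers were examined beside Lcn2. Of the 10 on the list, 4 (S100a9, Ly6g, Elane and Retnlg) were at 0 in all 6 libraries and only S100a8 passed the filter. The summed level was 14.0 and 31.0 FPKM in Control, 112 and 57.7 FPKM in Model and 64.6 and 50.9 FPKM in MUS. Nearly all of it was S100a8, with 13.5 and 30.6 FPKM for Control, 110 and 56.5 FPKM for Model, and 64.0 and 50.3 FPKM for MUS. Without S100a8 the list summed to 0.403 and 0.357 FPKM in Control, 1.68 and 1.11 FPKM in Model, and 0.611 and 0.627 FPKM in MUS. Camp, another granule gene, had 0 and 0.288 FPKM in Control, 1.59 and 1.11 FPKM in Model, and 0.611 and 0.487 FPKM in MUS. The list, with and without S100a8, and Camp were thus higher in all 4 stimulated libraries than in Control, and their part in the Lcn2 result was not tested.

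Tfrc encodes transferrin receptor 1, the main route for transferrin iron. It had 31.5 and 33.1 FPKM in Control, 10.6 and 11.1 FPKM in Model, and 12.05 and 10.5 FPKM in MUS. Control replicates differed little, and every stimulated library was below both. For Tfrc the log2 fold change of Model against Control was −1.49 ± 0.23 (limma, adjusted p = 0.00804), with −1.48 in batch 1 and −1.49 in batch 2. On the fragment-total scale it was −2.02, and relative to the median of all genes the decrease was of about the same size on both scales. Both calls, of Lcn2 and of Tfrc, passed in this comparison with every library left out in turn, with adjusted p up to 0.0144 for Lcn2 and 0.0402 for Tfrc.

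**Figure D2:**
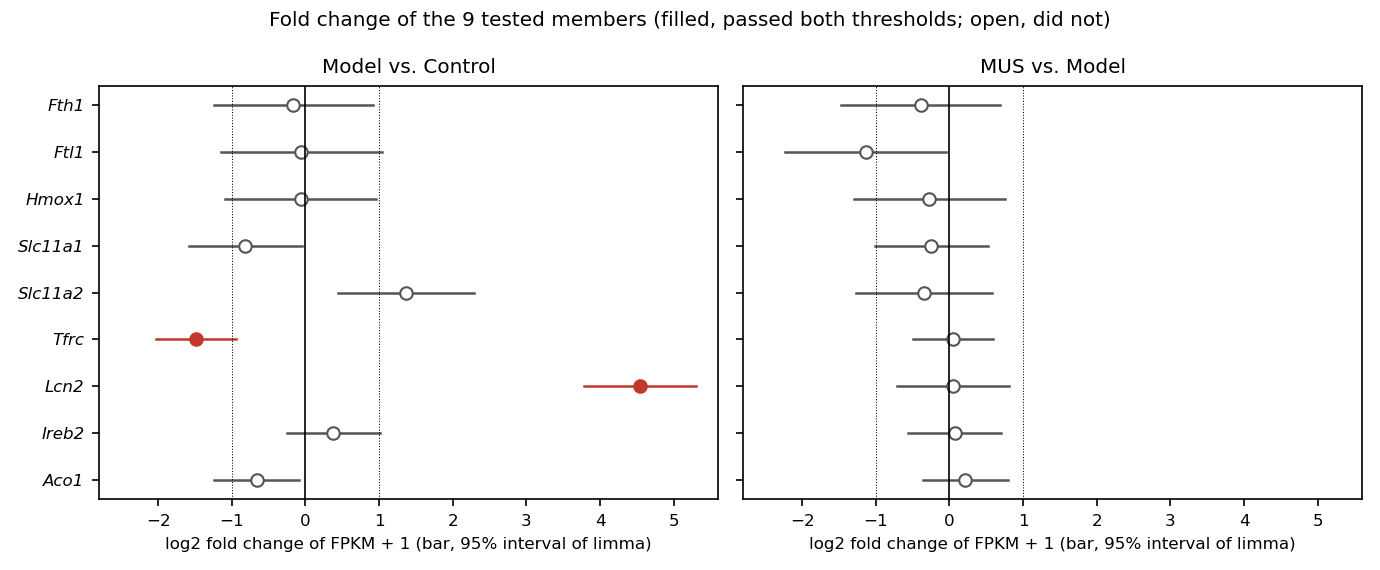
log2 fold change of FPKM + 1 for the 9 tested members (horizontal axis) in Model vs. Control and in MUS vs. Model, with bars for the 95% interval of limma and dotted lines at 1 and −1. Filled points passed both thresholds. Lcn2 at 4.54 and Tfrc at −1.49 are the filled points in Model vs. Control, and no point is filled in MUS vs. Model.

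The 2 related metal transporters had opposite signs. Slc11a2 encodes DMT1, which carries ferrous iron out of endosomes, while Slc11a1 encodes NRAMP1, a transporter of the phagosome membrane that removes divalent metals from engulfed microbes. C57BL/6 mice are known to carry a loss-of-function allele of Slc11a1. Slc11a2 had 18.6 and 39.9 FPKM in Control, 74.5 and 69.5 FPKM in Model, and 51.0 and 62.2 FPKM in MUS. The Control replicates differed more than 2-fold, yet neither reached a stimulated library. Against Control, the log2 fold change in Model was 1.37 ± 0.39, which missed the threshold (limma, adjusted p = 0.0545). Of 14 alternative settings, Slc11a2 passed in 3 and did not pass in 11. It passed in limma with a block on the replicate number (adjusted p = 0.0459) and with a minimum of 5 FPKM (adjusted p = 0.0431). Among those where it did not pass were fragment-total scaling (0.83, adjusted p = 0.121) and quantile normalization (0.76, adjusted p = 0.224). The fold change was 1.89 without Control replicate 2 and 0.84 without Control replicate 1. The batches gave 1.94 and 0.79. Slc11a2 overlaps Gm5475 on the other strand, with which it shares 4.03% of its 50-base stretches, and the protocol describes no marking of strand, so reads in the overlap cannot be told apart.

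Slc11a1 had 181 and 216 FPKM in Control, 102 and 123 FPKM in Model, and 81.5 and 109 FPKM in MUS. All 4 stimulated libraries were below both Control libraries. The log2 fold change of Slc11a1 against Control was −0.82 ± 0.32 (limma, adjusted p = 0.127), with −0.82 and −0.81 in the batches, and did not pass. With fragment-total scaling it was −1.36 (adjusted p = 0.0233), which passed. Within a library, where the scale cancels, Slc11a1 stood at 9.72 and 5.42 times Slc11a2 in Control, at 1.37 and 1.76 times in Model and at 1.60 and 1.75 times in MUS. Every stimulated library thus had a smaller ratio than either Control library. This ratio and those that follow were chosen after the values were seen, and an exact permutation test of 2 libraries against 2 cannot give a p under 0.333.

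The 2 iron regulatory proteins had opposite signs on the deposited scale. Aco1 encodes IRP1, which acts as the cytosolic aconitase when it holds an iron-sulphur cluster, and Ireb2 encodes IRP2, which is degraded when iron is plentiful. Aco1 had 17.6 and 14.3 FPKM in Control, 8.64 and 10.8 FPKM in Model, and 10.7 and 12.1 FPKM in MUS. The Control values were above all others. For Aco1 the log2 fold change against Control was −0.66 ± 0.24 (limma, adjusted p = 0.107) on the deposited scale, and −1.18 with an adjusted p of 0.0221 with fragment-total scaling. Ireb2 had 7.21 and 10.6 FPKM in Control, 10.1 and 13.4 FPKM in Model, and 12.5 and 12.04 FPKM in MUS. Control and Model overlapped, and the log2 fold change of 0.38 ± 0.27 (limma, adjusted p = 0.357) turned to −0.12 with fragment-total scaling. It lay above the median of all tested genes on both scales, which was 0.04 and −0.40. Because the libraries overlapped and the sign turned, no direction is given for Ireb2. Within a library Aco1 stood at 2.44 and 1.35 times Ireb2 for Control, at 0.853 and 0.809 times for Model, and at 0.856 and 1.00 times for MUS, with both Control ratios above all others.

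**Figure D3:**
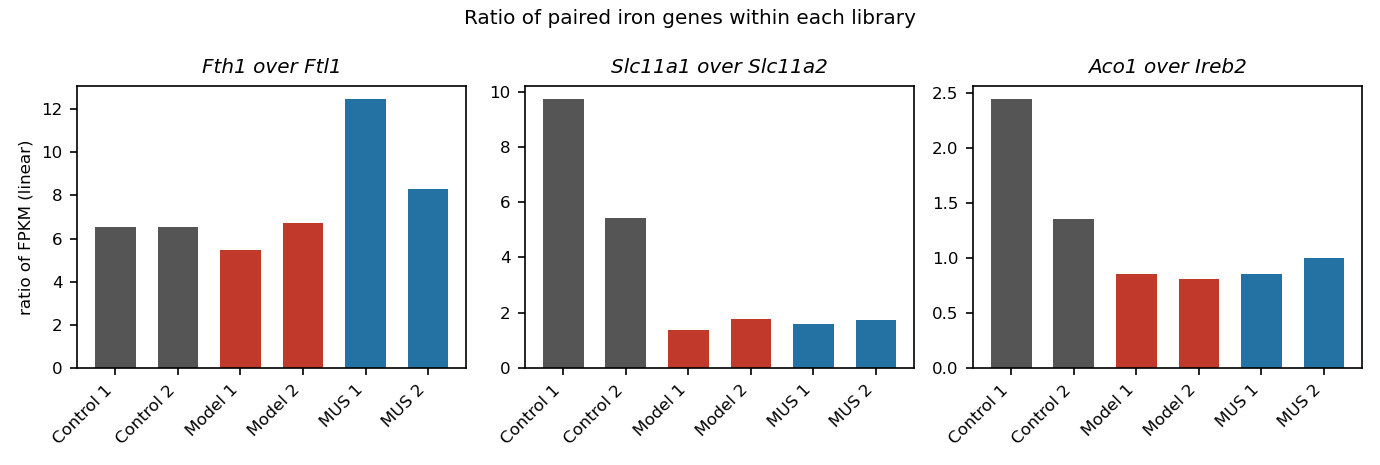
Ratio of FPKM within each of the 6 libraries (bars, linear axis from 0) for Fth1 over Ftl1, Slc11a1 over Slc11a2 and Aco1 over Ireb2. The last 2 ratios are higher in both Control libraries than in the other 4, while Fth1 over Ftl1 is highest in the MUS libraries, at 12.5 and 8.30.

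The storage genes and Hmox1 did not pass in Model vs. Control. Ferritin is a shell of heavy chains, which oxidise iron, and light chains, which help to form the mineral core. Fth1, the heavy chain, had 16380 and 20735 FPKM in Control, 19661 and 13747 FPKM in Model, and 12666 and 12415 FPKM in MUS. Control and Model overlapped, and the log2 fold change was −0.16 with a 95% interval from −1.25 to 0.92 (limma, adjusted p = 0.821). As a share of all fragments on genes, Fth1 took 2.06% and 2.40% for Control, 1.55% and 1.19% for Model, and 1.02% and 1.06% for MUS. On that scale the groups did not overlap, and the log2 fold change was −0.71 (adjusted p = 0.249).

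Ftl1, the light chain, had 2511 and 3167 FPKM in Control, 3603 and 2049 FPKM in Model, and 1017 and 1496 FPKM in MUS. The Model replicates enclosed the Control replicates. Against Control, the log2 fold change of Ftl1 was −0.05, with an interval from −1.15 to 1.04 (limma, adjusted p = 0.946), and the batches gave opposite signs, 0.52 and −0.63. Hmox1, which opens the haem ring and frees its iron, had 142 and 298 FPKM in Control, 196 and 198 FPKM in Model, and 135 and 196 FPKM in MUS. The 2 Control values enclosed both Model values, and the log2 fold change of −0.07 (interval −1.10 to 0.96, adjusted p = 0.929) became 0.46 without Control replicate 2.

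Slc40a1 encodes ferroportin, the only iron exporter known in mammals. It stood at 0.321 and 0.272 FPKM in Control, 0.0945 and 0.0215 FPKM in Model, and 0.0515 and 0.0479 FPKM in MUS. Behind these values were 66 and 56 fragments for Control, 12 and 3 for Model, and 7 for each MUS library. The Control libraries were above all others. In Control replicate 1 the level was close to that of Lcn2, and elsewhere it was below every other member. In the limma fit without a filter on low values, Slc40a1 had a log2 fold change of −0.29 (adjusted p = 0.169) in Model vs. Control. In MUS vs. Control it was −0.30 (adjusted p = 0.129). With 1 added to each FPKM value, a gene this low cannot fall by 1 on the log2 scale. That Slc40a1 did not pass was thus fixed in advance and says nothing about a change. Its mean in Model was 0.196 times that in Control. Fragment numbers carry counting error only, whereas the limma intervals reflect the spread between libraries.

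**Figure D4:**
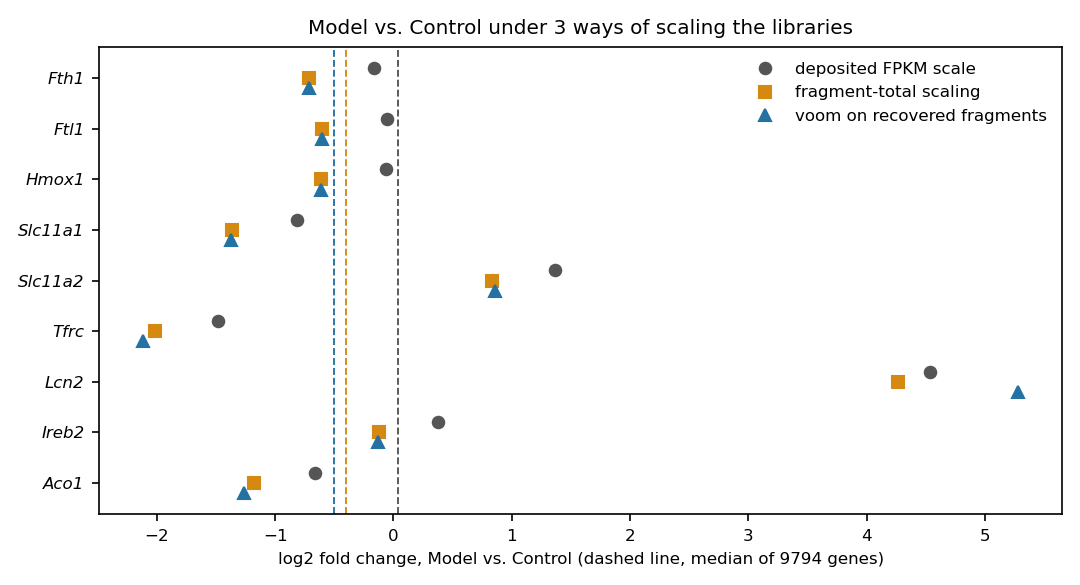
log2 fold change of the 9 tested members in Model vs. Control (horizontal axis) on the deposited FPKM scale, with fragment-total scaling and with voom on the recovered fragments. Dashed lines mark the median of all 9794 genes in each, at 0.04, −0.40 and −0.50. Tfrc lies to the left of the median and Lcn2, Slc11a2 and Ireb2 to the right in all 3, although the sign of Ireb2 turns.

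The comparison of MUS with Model asks what muscone added to stimulated cells, in a window of 1 h before harvest. No member passed the thresholds in this fit, as was the case for all tested genes. Of these 0% were called and the smallest adjusted p in limma was 0.139. The paper reported called genes in this comparison at the same thresholds with another method, DESeq2. The absence of calls here thus does not show that muscone changed no gene. At an unadjusted p under 0.05, Ftl1 was lower and no member higher, beside 5.81% of all tested genes lower and 2.61% higher. In 4 of the 9 members (Ftl1, Fth1, Slc11a2 and Hmox1) both MUS libraries were below both Model libraries, and in none were both above, beside 21% of all tested genes lower and 21.2% higher. For Hmox1 the gap was between 195.8 and 195.9 FPKM.

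Ftl1 had the largest difference among members. Its mean was 2826 ± 1098 FPKM (SD, n = 2) in Model and 1256 ± 339 FPKM in MUS, with a log2 fold change of −1.14 ± 0.46 (limma, unadjusted p = 0.0433, adjusted p = 0.569). Both batches had MUS below Model, by −1.82 in batch 1 and −0.45 in batch 2. The fold change was −0.73 without Model replicate 1 and −1.55 without Model replicate 2. Because both MUS libraries were below both Model libraries, the batches had to have the same sign. The difference did not pass the adjustment.

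Reads of Ftl1 may be shared with copies. Of its 50-base stretches, 58.4% also occur in transcripts of other genes and 47.3% in the copy Ftl1-ps1, while the other members share between 0% and 4.27%. How the counting treated such reads is not given in the sources used here. Ftl1-ps1 itself was listed at 17.2 and 17.1 FPKM in Control, 17.6 and 12.5 FPKM in Model, and 5.30 and 7.40 FPKM in MUS, a level far below that of Ftl1. It too was lower in both MUS libraries than in any other, and MUS differed from Model by −1.12 ± 0.27 on the log2 scale (limma, adjusted p = 0.378). Ftl1-ps1 cannot be taken as an independent measure, because the 2 genes share sequence.

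The difference was smaller for the heavy chain, and whether the chains differ was not tested. For Fth1 the log2 fold change between MUS and Model was −0.39 ± 0.46 (limma, adjusted p = 0.875), with −0.63 and −0.15 in the batches. Fth1 stood at 6.52 and 6.55 times Ftl1 for Control, at 5.46 and 6.71 times for Model, and at 12.5 and 8.30 times for MUS. Both MUS libraries had a higher ratio than all 4 others, where it varied little, although MUS replicates differed from each other by more than the Control and Model libraries did. The ratio of Ftl1 to Hmox1 was 7.51 and 7.64 in MUS and 10.4 to 18.4 elsewhere.

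Differences of the remaining members between MUS and Model were small against their error. Slc11a2 had a log2 fold change of −0.35, with an interval from −1.27 to 0.57, Hmox1 −0.27 from −1.30 to 0.76, and Slc11a1 −0.25 from −1.01 to 0.52. Aco1 had 0.22 from −0.36 to 0.79, and Ireb2 0.07 from −0.56 to 0.70. For the 2 genes called in Model vs. Control, Lcn2 had 0.05 from −0.71 to 0.80 and Tfrc 0.05 from −0.49 to 0.59. The adjusted p of these 7 genes in limma was between 0.871 and 0.987. Intervals of this width leave room for changes of up to about the size of the threshold, so they do not show that muscone left these genes as they were.

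MUS vs. Control shares its libraries with the other comparisons and is given for completeness. The same 2 members passed, Lcn2 higher at 4.58 ± 0.32 (limma, adjusted p = 0.00105) and Tfrc lower at −1.44 ± 0.23 (adjusted p = 0.00708). These are 11.1% of the 9 tested members in each direction, beside 11.3% of all tested genes called higher and 8.91% called lower. Because Lcn2 entered the tests through its level outside Control, these counts too are description only. The Tfrc call was lost without either MUS library, with adjusted p of 0.0780 and 0.0729 at log2 fold changes of −1.53 and −1.35. Slc11a1 at −1.06 (adjusted p = 0.0527), Slc11a2 at 1.02 (adjusted p = 0.0989) and Ftl1 at −1.19 (adjusted p = 0.102) exceeded the fold threshold without passing the test. With fragment-total scaling Slc11a1 and Ftl1 passed, at −1.60 (adjusted p = 0.0111) and −1.73 (adjusted p = 0.0228). Fth1 had −0.56, Aco1 −0.45, Ireb2 0.45 and Hmox1 −0.34, with adjusted p from 0.217 to 0.593.

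The other genes of the pathway were read from a list of 67 genes in 7 roles, of which 50 passed the filter. In Model vs. Control 6 of the 50 (12%) rose and 8 (16%) fell, beside 9.5% and 5.56% of all tested genes, and 36 did not pass. The median log2 fold change was −0.19 over the list and 0.04 over all tested genes. These counts depend on the libraries: instead of 14 genes, between 7 and 9 were called when Control replicate 1 (8), Model replicate 1 (7), Model replicate 2 (9) or either MUS library (7) was left out, and 17 without Control replicate 2. With fragment-total scaling 4 rose and 12 fell, with voom 4 rose and 14 fell, with quantile normalization 4 rose and 10 fell, with only the groups compared 3 rose and 4 fell, and without a filter on low values 1 rose and none fell.

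In the hepcidin axis and ferroxidases 3 of 6 tested genes rose and 1 fell. For this role and those below, the shares of all tested genes were 9.5% higher and 5.56% lower. Hamp and Cp averaged below 1 FPKM in Control, and Smad6 did in Model and in MUS. These genes thus entered the tests through the groups where they were high, and the counts are description only. Hamp, the gene of hepcidin, the hormone that removes ferroportin from the cell surface, stood at 0.320 and 0.107 FPKM in Control, 8.12 and 5.35 FPKM in Model, and 2.90 and 5.11 FPKM in MUS. It rests on 3 and 1 fragments in Control and 18 to 47 elsewhere, and the log2 fold change of 2.66 for Model against Control (limma, adjusted p = 0.00325) depends on the pseudocount. It shares 16.6% of its 50-base stretches with Hamp2. Cp, the ferroxidase ceruloplasmin, had 0.210 and 0.544 FPKM in Control, 4.76 and 9.34 FPKM in Model, and 10.8 and 9.39 FPKM in MUS (log2 fold change 2.50, adjusted p = 0.00427). Furin, a protease that matures hepcidin, rose by 1.21 (adjusted p = 0.0462). Smad6, an inhibitor of the BMP signal that drives hepcidin, fell by 1.55 on the log2 scale (adjusted p = 0.00746). It rests on 17 and 32 fragments in Model and 12 and 22 in MUS. The other 2 tested genes of this role, Smad7 (−0.12, limma, adjusted p = 0.781) and Hfe (−0.69, adjusted p = 0.204), did not pass.

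Genes of the transferrin cycle split. Steap3, the endosomal reductase that prepares transferrin iron for DMT1, had 16.4 and 6.58 FPKM in Control, 1.45 and 1.63 FPKM in Model, and 0.996 and 1.13 FPKM in MUS, with a log2 fold change of −2.18 in Model vs. Control (limma, adjusted p = 0.0112). Slc39a14, the ZIP14 transporter of iron that is not bound to transferrin, had 1.11 and 5.86 FPKM in Control, 17.9 and 24.6 FPKM in Model, and 17.3 and 19.9 FPKM in MUS (2.53, adjusted p = 0.0197). The other 3 tested genes of this role did not pass. Steap3 thus fell with Tfrc, whereas Slc39a14 rose and Slc11a2 was higher without passing.

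Ncoa4, the receptor that delivers ferritin to the lysosome for iron release, was the single gene of chaperones and ferritin turnover that passed. It had 21.2 and 18.7 FPKM in Control, 2.84 and 5.68 FPKM in Model, and 8.42 and 7.26 FPKM in MUS. Control did not overlap the others, and both MUS values lay between the Model and Control values. Against Control its log2 fold change was −2.05 ± 0.30 in Model (limma, adjusted p = 0.00706), and −1.25 in MUS (adjusted p = 0.0267), and MUS vs. Model gave 0.80, which did not pass (adjusted p = 0.534). Gm6768 holds 17.9% of the 50-base stretches of Ncoa4.

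Among genes of haem and haemoglobin 1 of 8 rose and 2 fell. Hp, whose product haptoglobin binds free haemoglobin, had 18.9 and 40.7 FPKM in Control, 99.1 and 70.4 FPKM in Model, and 58.4 and 63.0 FPKM in MUS (log2 fold change in Model vs. Control 1.55, limma, adjusted p = 0.0418). Slc48a1, which carries haem out of the phagolysosome, had 69.1 and 106 FPKM in Control, 28.8 and 28.9 FPKM in Model, and 9.86 and 18.2 FPKM in MUS. It fell by 1.54 on the log2 scale in Model vs. Control (adjusted p = 0.0315), and the difference of −1.05 in MUS vs. Model did not pass (adjusted p = 0.496). Flvcr1, a haem exporter, had 32.9 and 20.3 FPKM in Control, 9.29 and 7.78 FPKM in Model, and 11.3 and 10.8 FPKM in MUS, and also fell in Model vs. Control (adjusted p = 0.0160). Flvcr1 overlaps A230020J21Rik on the other strand, with which it shares 14.7% of its 50-base stretches, so reads in the overlap cannot be told apart.

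In iron sensing 1 of 6 tested genes rose and 1 fell. Zfp36, the RNA-decay protein tristetraprolin, which targets Tfrc messages among others, had 33.3 and 17.1 FPKM in Control and 116 to 129 FPKM in the other 4 libraries (2.35, limma, adjusted p = 0.00849). Epas1, the hypoxia-inducible factor HIF-2α, fell by 1.39 (adjusted p = 0.0300). In mitochondrial iron use, iron-sulphur clusters and haem synthesis 20 of 22 tested genes did not pass and none was called higher. By sign 8 were higher and 14 lower. Among the higher, Slc25a37 (1.66, limma, adjusted p = 0.0936) and Alas1 (1.37, adjusted p = 0.109) exceeded the fold threshold without passing. The 2 called lower were Hscb, a co-chaperone of cluster assembly, which fell by 1.56 (adjusted p = 0.0147), and Fech. Fech, which inserts iron into haem, fell by 1.11 (adjusted p = 0.0251). None of the 3 siderophore genes passed the filter, among them the lipocalin-2 receptor Slc22a17, which reached at most 0.300 FPKM.

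**Figure D5:**
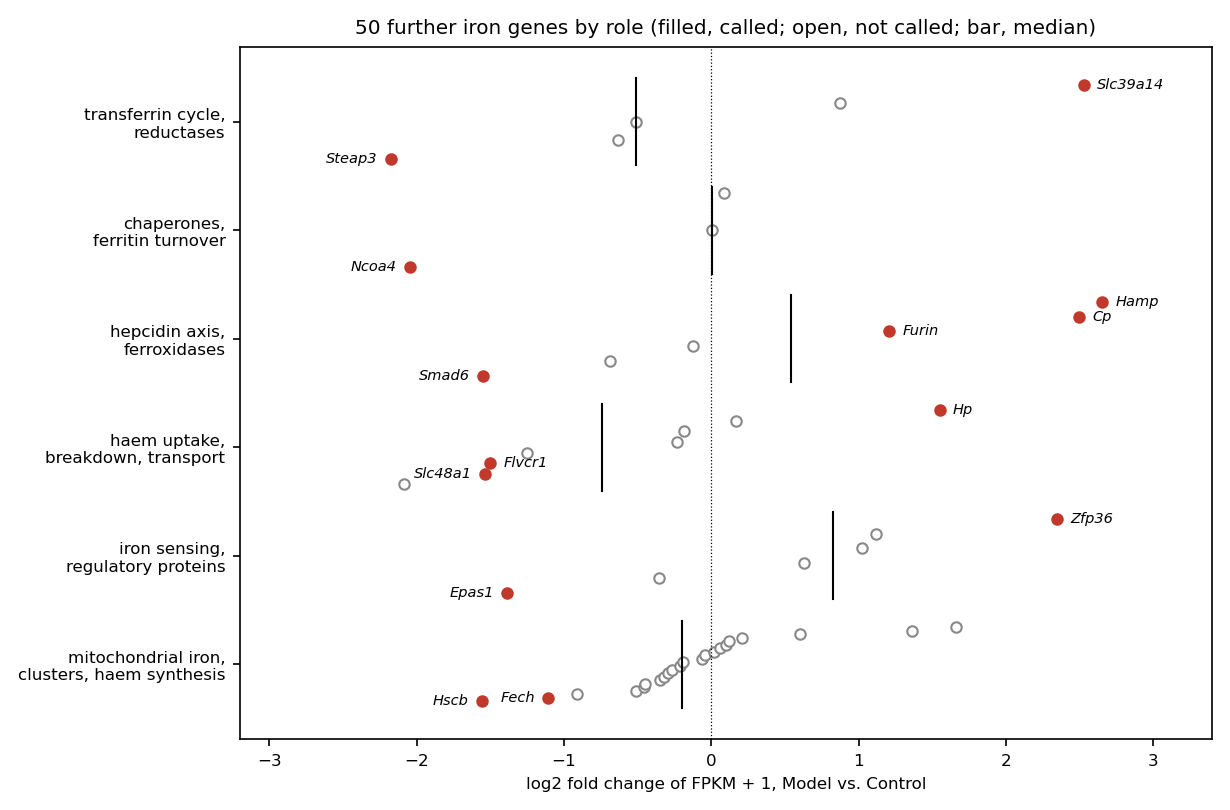
log2 fold change in Model vs. Control (horizontal axis) of the 50 tested genes of the pathway list, 1 point per gene in rows by role, with vertical bars for the median of each role. Filled, named points passed both thresholds, 6 to the right and 8 to the left of 0, and most of the 22 mitochondrial genes lie near 0.

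None of the 50 genes passed in MUS vs. Model, and 6 had an unadjusted p under 0.05 in limma. Of these 3 were higher and 3 lower, beside 2.61% and 5.81% of all tested genes. The median of the list was −0.11, beside 0.01 over all tested genes. In MUS vs. Control 5 genes (10%) rose and 9 (18%) fell, beside 11.3% and 8.91% of all tested genes. The 5 were Cp, Furin, Hamp, Slc39a14 and Zfp36, and the 9 included Alad (log2 fold change −1.13, limma, adjusted p = 0.0169), an enzyme of haem synthesis, and Blvra (−1.45, adjusted p = 0.0274), a biliverdin reductase. Instead of these 14 genes, 9 were called without Control replicate 1, 2 without MUS replicate 1 and 6 without MUS replicate 2. With fragment-total scaling 4 rose and 17 fell, with voom 4 rose and 20 fell, and without a filter on low values 1 rose and 2 fell.

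The tested genes with the pattern most like that of Lcn2, by Pearson's r over the 6 libraries on the log2(FPKM + 1) scale, were Isg20, Il15ra and Trim30c, each with r of 0.999. Isg20, for example, had 0.517 and 1.43 FPKM in Control, 41.2 and 36.0 FPKM in Model, and 41.4 and 43.8 FPKM in MUS. Those most like Tfrc were Arrb1 (r = 0.998), Slc43a2 (r = 0.997) and Extl2 (r = 0.995). Slc43a2 had 27.5 and 31.1 FPKM in Control and 0.769 to 1.19 FPKM in the other 4 libraries. With 6 libraries in 3 groups such values describe a shared step from Control to stimulated cells and are given with no test.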

How the data were processed

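RNA-seq of peritoneal macrophages was examined in 6 libraries, 2 each of Control, Model and MUS, grouped by the sample labels. The authors deposited 1 table of FPKM (fragments scaled to gene length and library size) with 1 column per library, and 0 columns had no sample. The methods name RSEM, whereas the submitters' processing notes name HISAT2, featureCounts 1.5.0-p3 and GRCm39. Start and end were the same as in GENCODE M21 on GRCm38 for 98.3% of 54495 shared gene identifiers, including 9 of the 10 members (not Fth1), so GRCm38 coordinates are given. FPKM times gene length was a whole multiple of a step for 100% of values (tolerance 0.1), which gave fragments per gene. The library scale is not described in the sources used here. A count of 0 allows 3 fragments, or 0.131 to 0.213 FPKM for a gene of 1 kb.

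Tests were made in R 4.3.3 with limma 3.58.1 (lmFit, contrasts.fit, eBayes with a trend). Values were log2(FPKM + 1), 9794 genes averaging at least 1 FPKM were tested, and all 6 libraries entered 1 model of 3 groups, with 3 residual and 4.04 prior degrees of freedom. Tests were two-sided and Benjamini-Hochberg adjusted over all tested genes. A gene was called where its adjusted p did not exceed 0.05 and its log2 fold change was beyond 1 in either direction, as in the study. The fit was tested on simulated data. Fold changes are on the log2(FPKM + 1) scale and understate those of low genes. Tables were made with pandas 2.3.3 and NumPy 2.4.6 under Python 3.11.15, and plots with Matplotlib 3.10.9.

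The labels give the replicate number as the batch. Deviations of same-numbered libraries correlated across genes at 0.12 (Control and Model), 0.14 (Model and MUS) and −0.09 (Control and MUS), and the block on this number was an alternative, as were other pseudocounts, filters, scalings, voom, a fit of 2 groups and leaving out each library.

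The members, lists and tests were chosen with earlier results of these data known. Named are all members, pathway genes called in a comparison, the 3 genes most like Lcn2, which had the largest fold change in Model vs. Control, and the 3 most like Tfrc, which had the most negative one. Other genes bear on a member or stand beside a called gene of the same role, and were chosen after their values were seen. Protein sequences were not analysed here. The result for one called gene of the pathway list is not reported here.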

Additional observations from a re-analysis of the deposited data

How the results depend on the processing

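The calls of Lcn2 in Model vs. Control and in MUS vs. Control and of Tfrc in Model vs. Control held under all 14 alternatives. Of 27 fold changes of members, 16 kept their direction under every alternative. Members called in Model vs. Control went from 2 to 4 with fragment-total scaling and with voom, and in MUS vs. Control from 2 to 4 with quantile normalization, 4 with fragment-total scaling and 6 with voom, and to between 1 and 3 with a library left out (1 without either MUS library). Genes called in Model vs. Control went from 1475 (63.1% of them higher) to 260 without a filter (87.7% higher), 2734 with voom (25.0% higher), 797 with only the groups compared and between 692 and 2077 with a library left out (763 without Control replicate 1, 692 without Model replicate 1, 800 and 797 without MUS replicates 1 and 2). With quantile normalization 49.7% and with fragment-total scaling 29.4% of the called genes were higher, and 74.8% with a minimum of 5 FPKM. In MUS vs. Model 0 genes went to 1 with a pseudocount of 0.1, 7 with only the groups compared, 4 with the replicate block and up to 31 with a library left out (without Model replicate 2). In MUS vs. Control 1980 genes went to 456 without a filter, 3144 with voom and between 184 and 2398 with a library left out (1082 without Control replicate 1, 184 and 719 without MUS replicates 1 and 2). The replicate block changed no member's call other than that of Slc11a2 in Model vs. Control. Quantile normalization sets Fth1 to 0 in all 3 comparisons, because it ranks first in every library. Ireb2 turned to −0.12 (fragment-total scaling) and −0.13 (voom) in Model vs. Control, and to −0.0433 and −0.0450 in MUS vs. Control. With a library left out, signs turned for Fth1 (−0.42 to 0.0933), Ftl1 (−0.46 to 0.35) and Hmox1 (−0.60 to 0.46) in Model vs. Control, for Tfrc (−0.0411 to 0.14), Lcn2 (−0.00636 to 0.0975) and Ireb2 (−0.11 to 0.26) in MUS vs. Model and for Hmox1 (−0.87 to 0.19) in MUS vs. Control. Apart from these, the cause of a change was not tested. With a library left out, the lone library of its group is assumed to vary like the others. With 2 libraries a group, small fold changes cannot be resolved.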
